A study of Mus musculus with 7 samples.

Results

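The machinery of MHC class I antigen presentation was followed through 10 genes of CD8+ T cells exposed to leukemia vesicles: *H2-K1*, *H2-D1*, *B2m*, *Tap1*, *Tap2*, *Tapbp*, *Psmb8*, *Psmb9*, *Psmb10*, and *Nlrc5*. They were picked by gene symbol from the 55367 genes of the count table. All 10 were deep enough to be tested, among 12623 tested genes. Per the labels, the libraries came from CD8+ T cells sorted from spleens of Foxp3 YFP/cre mice, whereas the methods also describe negative selection for cultured T cells. In the Foxp3 YFP/cre strain, regulatory T cells, which express Foxp3, carry YFP and the Cre recombinase. The cultures received small extracellular vesicles (sEV) at 100 µg/ml for 48 hours. HCME-sEVs are vesicles from the spleens of healthy mice (4 libraries, labelled control EVs), and LME-sEVs are vesicles from leukemic spleens of the Eμ-TCL1 model, in which the TCL1 transgene is driven in B cells (3 libraries, labelled leukemia EVs). The groups and their sizes follow the labels, and a figure legend of the study gives the sizes the other way round. Both groups are vesicle-treated, and no culture without vesicles is part of this comparison. According to the methods, CD8+ T cells were kept on anti-CD3 with CD28 antibody and IL2, in both groups alike, and the vesicle amount followed what each kind of spleen holds, whereas the labels give 1 concentration for all. The labels give neither age nor sex of the mice, and do not say whether libraries came from separate animals. The p-values thus measure the spread between these libraries, which may be technical.

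Class I molecules display peptides of a cell's own proteins to CD8+ T cells. The proteasome cuts proteins into peptides, and in lymphocytes and interferon-treated cells 3 of its catalytic subunits are replaced by those of the immunoproteasome. The TAP transporter carries the peptides into the endoplasmic reticulum, where tapasin and chaperones help to load them onto a heavy chain paired with β2-microglobulin. NLRC5 is the transactivator of class I genes and acts on an enhanceosome at their promoters, and interferon gamma is the best known inducer of the whole set. T cells both read class I molecules on other cells and present peptides on their own.

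Promoter sequences of 5 of these genes are printed to show control sequences known from class I and interferon-induced genes. They are the 200 bases before the RefSeq start (the first listed for *H2-K1*; that of *H2-D1* lies inside the gene as GENCODE draws it), 5′ to 3′ on the strand of the gene, from the RefSeq table for GRCm38.p6, in which 8 of the 10 genes were found (all but *Nlrc5* and *Tap2*). Capitals mark the class I enhancer A, a binding site of NF-kappaB, in *H2-K1* and *H2-D1*, and in *B2m* a match to the interferon-stimulated response element, written as GAAA, any 2 bases, and GAAA. The last sequence is the stretch between the starts of *Psmb9* and *Tap1*, which are transcribed away from each other from starts 226 bases apart. It is written on the strand of *Tap1*, with capitals for CCAAT, the site of NF-Y.
H2-K1, chr17:34000348-34000547, minus strand: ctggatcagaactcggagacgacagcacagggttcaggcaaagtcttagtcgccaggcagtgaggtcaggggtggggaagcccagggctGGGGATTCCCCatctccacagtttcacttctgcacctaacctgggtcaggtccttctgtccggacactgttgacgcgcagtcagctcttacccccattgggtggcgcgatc
H2-D1, chr17:35262894-35263093, plus strand: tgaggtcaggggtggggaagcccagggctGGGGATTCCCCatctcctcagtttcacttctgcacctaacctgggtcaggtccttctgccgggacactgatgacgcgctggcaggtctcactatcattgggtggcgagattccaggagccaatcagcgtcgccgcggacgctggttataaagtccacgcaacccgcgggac
B2m, chr2:122147487-122147686, plus strand: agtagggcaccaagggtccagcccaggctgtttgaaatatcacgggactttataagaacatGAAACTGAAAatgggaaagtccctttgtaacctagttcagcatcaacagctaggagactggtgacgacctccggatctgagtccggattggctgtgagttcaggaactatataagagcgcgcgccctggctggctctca
Psmb9 and Tap1, chr17:34187331-34187555, plus strand: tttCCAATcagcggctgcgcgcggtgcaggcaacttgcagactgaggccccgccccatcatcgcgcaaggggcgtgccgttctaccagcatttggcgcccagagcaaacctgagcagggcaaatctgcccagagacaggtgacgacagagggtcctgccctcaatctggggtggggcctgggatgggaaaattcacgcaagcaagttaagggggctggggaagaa

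Motifs were searched on both strands from 250 bases before to 50 bases after each start. The enhancer A sequence of *H2-K1* and *H2-D1* is rare, with 10 of 32851 promoters in the table (0.0304%), and begins at position -111 from the start of *H2-K1* and at -171 from that of *H2-D1*. The spelling searched for the interferon-stimulated element, found in 3.44% of promoters, was present in *B2m* alone of the 8, beginning at position -139. CCAAT was found in *B2m*, *Tapbp*, *H2-K1*, *H2-D1*, and in the stretch shared by *Psmb9* and *Tap1*, and in 37.4% of all promoters. The GAS element, read by STAT factors and spelled as TTC, any 3 bases, and GAA, was found in *Psmb8* alone (8.30% of all promoters), and the cAMP response element TGACGT in 0 of the 8 (7.51%). These matches describe letters in a window and not binding. Each element was searched in a single spelling, so a gene without a match may still hold a variant of it.

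Of the 10 genes, 7 lie in the MHC region on chromosome 17 of GRCm38 (GENCODE vM21, for all positions), next to one another for the peptide supply: *Psmb9* (34181987 to 34187764, minus strand), *Tap1* (34187553 to 34197225, plus), *Psmb8* (34197721 to 34201454, plus), and *Tap2* (34203527 to 34216321, plus). *H2-K1* (33996017 to 34000347, minus) and *H2-D1* (35262730 to 35267499, plus) stand on either side of this cluster. *Tapbp* (33915899 to 33929292, plus) lies near *H2-K1*. *B2m* is on chromosome 2 (122147686 to 122153083, plus), and *Nlrc5* (94434356 to 94527272, plus) and *Psmb10* (105935735 to 105938444, minus) are on chromosome 8. Counts came from the 3′ ends of transcripts with unique molecular identifiers, so a molecule gives 1 tag and gene length does not enter. None of the 10 has a 3′ end nearly identical to that of another gene. Exons of *Psmb9* and *Tap1* overlap on opposite strands, in the stretch where both genes start. Those of *Tapbp* overlap *Zbtb22* on the same strand (86 to 122 counts per library), and those of *Nlrc5* overlap *9330175E14Rik* on the opposite strand (26 to 44 counts). Whether counting used the strand is not given in the sources used here, so tags in such overlaps are uncertain.

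Library totals lay between 3689831 and 5030522 counts, and the 10 genes together took 0.521% to 0.615% of them. Each gene had between 70 and 12174 counts in a library, far above the floor of 3 counts (0.58 to 0.80 CPM, which covers counting error only). CPM here are counts scaled to a common library size after TMM normalisation, and FDR is the p-value of edgeR's quasi-likelihood test after Benjamini-Hochberg adjustment over all tested genes. The labelled cell type was checked on markers. The summed CD8 T-cell genes were at 1265 to 1378 CPM with HCME-sEVs and 1475 to 1686 with LME-sEVs, without overlap. Of these 5 genes, *Cd3e* and *Cd3g* were called higher with LME-sEVs (edgeR FDR = 0.0106 and 0.0405). *Cd4* and *Foxp3* had at most 3 counts anywhere. The remaining gene of the CD4 and regulatory T-cell list, *Zbtb7b*, which encodes ThPOK, was called higher with LME-sEVs (log2 fold change 0.87, edgeR FDR = 0.0241), and the sum of that list did not overlap, at 5.52 to 13.4 CPM against 14.3 to 16.4 CPM. B-cell genes summed to 10.7 to 12.0 CPM against 10.2 to 12.3, with 0 of 3 tested called and *Cd79a*, *Cd22*, *Fcer2a*, and *Blk* at most at 3 counts. Sums were higher with LME-sEVs for MHC class II genes (99.2 to 106 against 109 to 138 CPM, *Cd74* and *H2-Oa* called) and did not overlap for dendritic-cell genes (7.19 to 9.60 against 9.65 to 12.4). They overlapped for myeloid genes (97.2 to 132 against 127 to 168, 0 of 1 tested called). So did those for basophil and mast-cell genes (5.28 to 33.3 against 23.6 to 35.2, *Mcpt8* and *Prss34* called higher). The sums of erythroid and platelet genes overlapped as well (71.6 to 175 against 150 to 196, *Hba-a1*, *Pf4*, and *Ppbp* called higher). Most of the myeloid sum was *Cst3* (94.4 to 132 against 122 to 165 CPM). Most of the dendritic-cell sum was *Zbtb46* (6.38 to 8.40 against 8.31 to 10.8 CPM). The other genes of these lists were too low to be tested. Of them, *Itgam* (0 to 0.23 against 1.16 to 1.79 CPM) and *Itgax* (0 to 0.72 against 0.90 to 2.13 CPM) did not overlap, near the floor, and the rest did. Natural killer genes summed to 0.464 to 2.16 CPM against 0.387 to 0.536. Several of these cell types carry class I molecules too, and their part in the values below was not tested. In such bulk libraries, fewer cells of a type and less RNA per cell cannot be told apart.

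None of the 10 genes was called. At an FDR under 0.05, 0 of 10 passed in either direction, where 8.96% of all tested genes did (3.75% higher and 5.21% lower with LME-sEVs), and 0 were differentially expressed genes (DEG, FDR under 0.05 and a log2 fold change beyond 1; 1.28% of all). DESeq2 and limma-voom also called 0 of the 10. At an unadjusted p under 0.05 there was 1 in each of the 3 tools, *Psmb10* in edgeR. Log2 fold changes (LME-sEVs over HCME-sEVs) ran from -0.21 to 0.12, with 6 above and 4 under 0 and a median of 0.087, against a median of 0.0096 over all tested genes. Within the spread between these libraries, the intervals bounded the change for most of the genes. For 9 of the 10, all but *Tap2*, the 95% interval of edgeR lay within 1.5-fold of no change in both directions. This was so for 55.9% of all tested genes, which include some averaging as few as 5 counts.

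**Figure D1:**
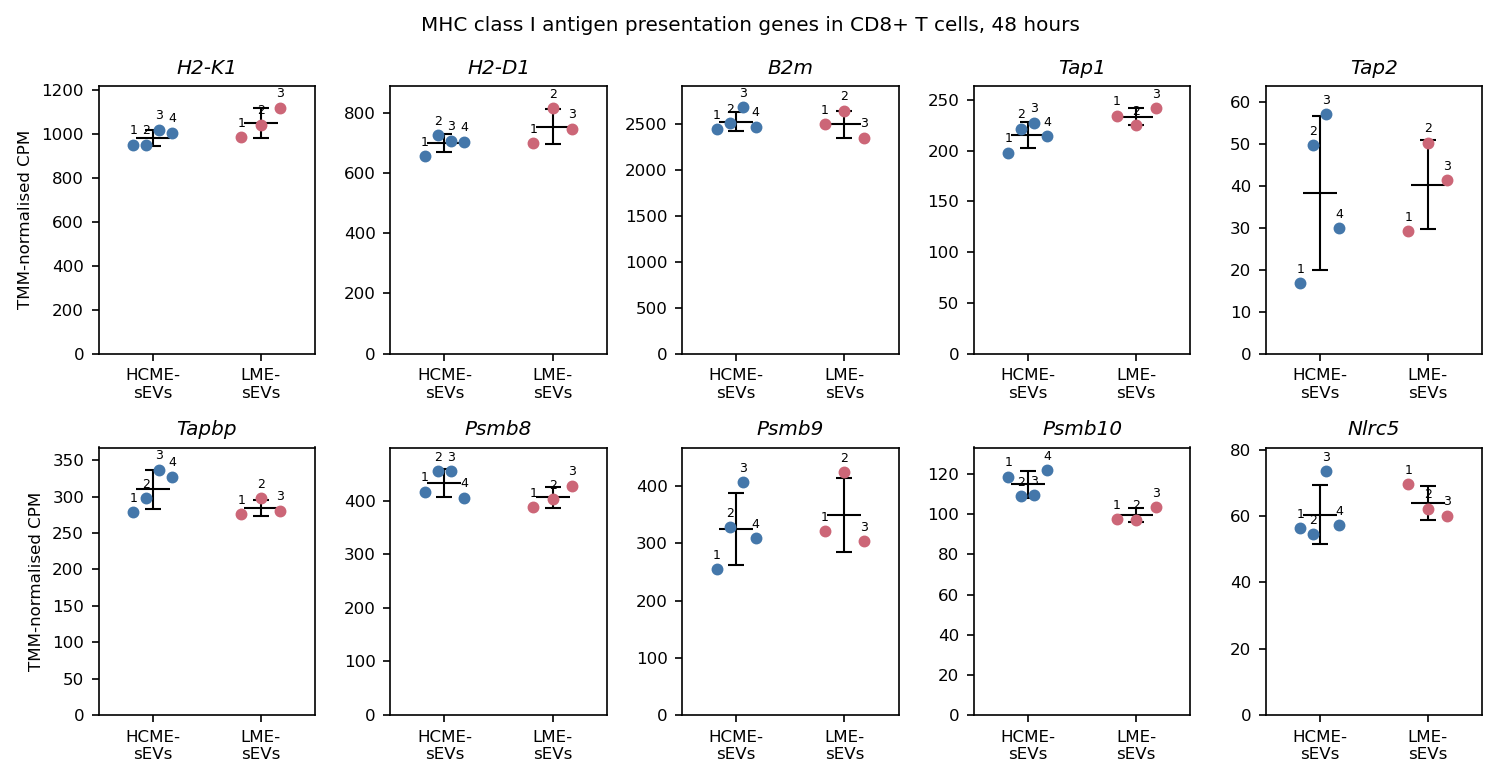
TMM-normalised CPM (vertical axes, each from 0) of the 10 genes in the 4 HCME-sEV libraries (blue) and the 3 LME-sEV libraries (red), numbered by library. Black bars are mean ± SD, and only for Psmb10 does every LME-sEV library lie under every HCME-sEV library.

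*H2-K1* and *H2-D1* encode the classical heavy chains, which hold the peptide. *H2-K1* was at 952, 952, 1021, and 1006 CPM in HCME-sEV libraries 1 to 4 and at 985, 1044, and 1120 CPM in LME-sEV libraries 1 to 3. The groups overlapped, since LME-sEV library 1 was under HCME-sEV libraries 3 and 4. The means were 983 ± 35.8 CPM (n = 4, mean ± SD) and 1050 ± 67.9 CPM (n = 3, mean ± SD), a log2 fold change of 0.10 (standard error 0.073, 95% interval -0.057 to 0.25, edgeR FDR = 0.480). *H2-D1* was at 655, 726, 707, and 704 CPM with HCME-sEVs and at 699, 815, and 747 CPM with LME-sEVs. LME-sEV libraries 2 and 3 stood above every HCME-sEV library and library 1 within them, and the log2 fold change was 0.11 (standard error 0.075, 95% interval -0.045 to 0.27, edgeR FDR = 0.409).

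The ratio of *H2-D1* to *H2-K1* within a library lay between 0.688 and 0.762 with HCME-sEVs and between 0.667 and 0.781 with LME-sEVs. The difference of the log2 ratios was 0.016 (two-sided exact permutation test over the 35 assignments of the libraries, p = 0.800; 0.943 after Benjamini-Hochberg adjustment over the 5 ratios examined). Together they took 73.5% to 76.3% of the tags of 18 H2 heavy-chain genes. That summed level was 2117 to 2333 CPM with HCME-sEVs (2232 ± 88.5, n = 4, mean ± SD) and 2253 to 2533 CPM with LME-sEVs (2438 ± 161, n = 3, mean ± SD). The groups overlapped by LME-sEV library 1, and the mean was 9.25% higher with LME-sEVs, a value given without a test.

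*B2m* encodes β2-microglobulin, the light chain that every class I heavy chain needs to reach the cell surface. It was the most abundant of the 10, with 2444, 2512, 2684, and 2472 CPM in the HCME-sEV libraries and 2499, 2648, and 2353 CPM in the LME-sEV libraries. The LME-sEV libraries included a value under every HCME-sEV library and another near the top of them. The log2 fold change was -0.016 (standard error 0.074, 95% interval -0.17 to 0.14, edgeR FDR = 0.930), from means of 2528 ± 108 CPM (n = 4, mean ± SD) and 2500 ± 148 CPM (n = 3, mean ± SD). Its sign was not stable to the scaling, with 0.0042 after upper-quartile normalisation and 0.028 with library size alone.

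*Tap1* and *Tap2* encode the subunits of the peptide transporter. *Tap1* was at 198, 222, 228, and 214 CPM with HCME-sEVs and at 234, 225, and 242 CPM with LME-sEVs. LME-sEV libraries 1 and 3 were above all HCME-sEV libraries and library 2 was not, with a log2 fold change of 0.12 (standard error 0.077, 95% interval -0.042 to 0.28, edgeR FDR = 0.389). *Tap2* varied more than any other of the 10. Its levels were 16.8, 49.8, 57.2, and 29.9 CPM in HCME-sEV libraries 1 to 4 and 29.2, 50.4, and 41.4 CPM in the LME-sEV libraries, a 3.40-fold range. HCME-sEV library 1 held 70 counts, whose exact Poisson 95% interval is 13.1 to 21.2 CPM, and HCME-sEV library 3 held 215 (49.8 to 65.3 CPM), so replicates of a group differed beyond counting error.

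For *Tap2*, the SD of log2 CPM within the HCME-sEV group was 0.79, against 0.060 for *B2m* and a median of 0.15 over tested genes averaging 20 counts or more. The log2 fold change of 0.09 therefore had a standard error of 0.25 and an interval of -0.43 to 0.62 (edgeR FDR = 0.873). With 1 library left out at a time it ran from -0.16 (without HCME-sEV library 1) to 0.35, so neither a rise nor a fall of this size was detectable. The ratio of *Tap2* to *Tap1* spanned 0.0871 to 0.253 with HCME-sEVs and 0.126 to 0.226 with LME-sEVs (log2 difference 0.06, two-sided exact permutation p = 0.943).

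*Tapbp* encodes tapasin, which bridges the transporter and the empty heavy chain. It was at 279, 298, 337, and 327 CPM with HCME-sEVs and at 276, 297, and 281 CPM with LME-sEVs. LME-sEV libraries 2 and 3 lay in the lower part of the HCME-sEV range and library 1 just under it. The means were 310 ± 26.8 CPM (n = 4, mean ± SD) and 285 ± 11.2 CPM (n = 3, mean ± SD), with a log2 fold change of -0.12 (standard error 0.080, 95% interval -0.29 to 0.045, edgeR FDR = 0.391).

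The immunoproteasome subunits did not share a direction. *Psmb8* (β5i) was at 417, 455, 455, and 406 CPM with HCME-sEVs and at 389, 403, and 428 CPM with LME-sEVs, and the groups overlapped (log2 fold change -0.09, standard error 0.075, edgeR FDR = 0.517). *Psmb9* (β1i) was at 255, 328, 407, and 309 CPM with HCME-sEVs and at 321, 424, and 304 CPM with LME-sEVs, a 1.67-fold range over the 7 libraries (log2 fold change 0.11, standard error 0.12, edgeR FDR = 0.662). Both groups held a low and a high *Psmb9* library, and the sign turned to -0.055 without LME-sEV library 2.

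*Psmb10* (β2i) was the single gene of the 10 whose groups did not overlap. Its levels were 119, 109, 110, and 122 CPM with HCME-sEVs and 97.6, 97.2, and 104 CPM with LME-sEVs. Every LME-sEV library was under every HCME-sEV library, a separation in this direction that 10.8% of all tested genes showed (20.3% in either direction). The means were 115 ± 6.51 CPM (n = 4, mean ± SD) and 99.5 ± 3.57 CPM (n = 3, mean ± SD), a fold of 0.866. The log2 fold change of -0.21 (standard error 0.083, 95% interval -0.38 to -0.034) had an unadjusted p of 0.0216 and did not pass the adjustment (edgeR FDR = 0.133). Its exact permutation p was 0.0286, the smallest that 35 assignments allow. Across 16 other settings the log2 fold change stayed between -0.24 and -0.16 and the FDR between 0.105 and 0.339.

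Each immunoproteasome subunit takes the place of a constitutive one, so the ratios to *Psmb5*, *Psmb6*, and *Psmb7* were compared within libraries. *Psmb8* over *Psmb5* was 5.85 to 6.37 with HCME-sEVs and 5.72 to 6.88 with LME-sEVs (log2 difference 0.06, two-sided exact permutation p = 0.429). *Psmb9* over *Psmb6* was 0.955 to 1.87 against 1.30 to 1.98 (log2 difference 0.24, exact permutation p = 0.343). *Psmb10* over *Psmb7* was 0.686, 0.642, 0.636, and 0.766 against 0.622, 0.574, and 0.613. This was the one ratio of the 5 whose groups did not overlap, lower with LME-sEVs by a log2 difference of -0.18 (exact permutation p = 0.0857, and 0.429 after Benjamini-Hochberg adjustment over the 5 ratios). Even the smallest exact permutation p, 0.0286, would not pass this adjustment for a single ratio, so the adjusted value decides nothing here. *Psmb5* has a nearly identical copy at its 3′ end and *Psmb7* overlaps *Nek6* on the opposite strand, which makes their tags less certain.

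**Figure D2:**
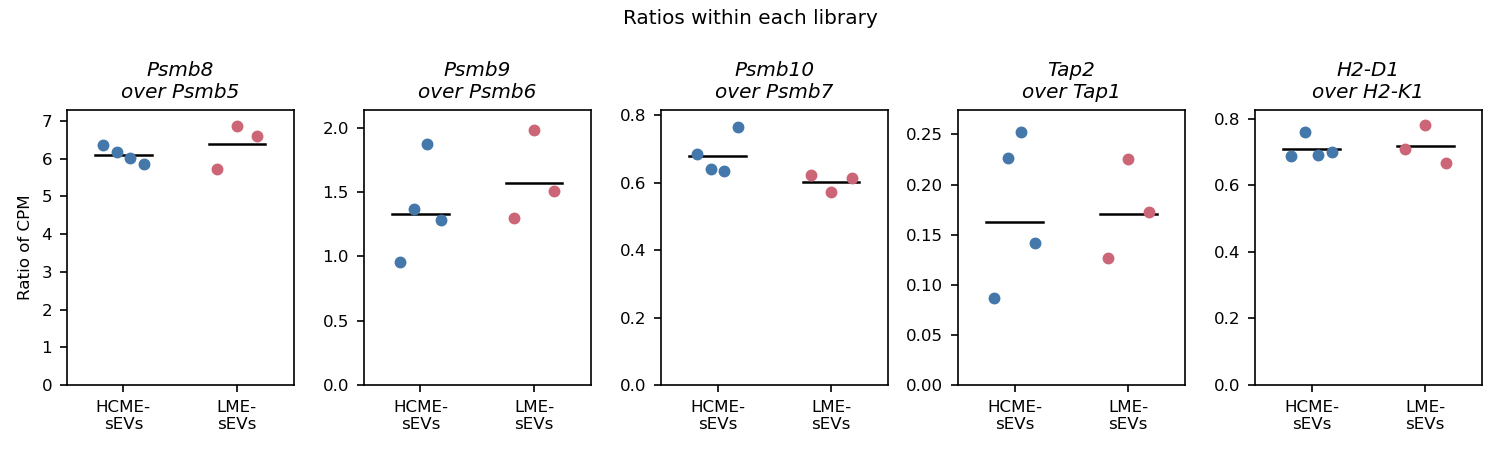
Ratio of CPM of 2 genes within each library (vertical axes from 0) for the 4 HCME-sEV libraries (blue) and the 3 LME-sEV libraries (red), with the geometric mean as a black line. Only Psmb10 over Psmb7 separates the groups, at 0.636 to 0.766 against 0.574 to 0.622.

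*Nlrc5*, the transactivator, was at 56.4, 54.6, 73.6, and 57.3 CPM with HCME-sEVs and at 69.7, 62.3, and 60.1 CPM with LME-sEVs. All 3 LME-sEV libraries were above 3 of the HCME-sEV libraries and under HCME-sEV library 3. The means were 60.5 ± 8.85 CPM (n = 4, mean ± SD) and 64.0 ± 5.05 CPM (n = 3, mean ± SD), with a log2 fold change of 0.08 (standard error 0.11, 95% interval -0.15 to 0.31, edgeR FDR = 0.724).

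Replicates of the HCME-sEV group differed in the same direction for most of the 10 genes. HCME-sEV library 1 held the lowest value of its group for 7 of the 10 genes (*H2-K1*, *H2-D1*, *B2m*, *Tap1*, *Tap2*, *Tapbp*, and *Psmb9*) and the highest for 0. HCME-sEV library 3 held the highest for 7 (*H2-K1*, *B2m*, *Tap1*, *Tap2*, *Tapbp*, *Psmb9*, and *Nlrc5*) and the lowest for 0. Over the 9695 tested genes averaging 20 counts or more, library 1 was lowest for 27.0% and library 3 highest for 25.6%. The sum of erythroid and platelet genes was also lowest in library 1, at 71.6 CPM, and highest in library 3, at 175 CPM. So were the sums of CD8 T-cell genes (1265 and 1378 CPM) and of myeloid genes (97.2 and 132.4 CPM, with library 2 at 132.1). The sums of B-cell, dendritic-cell, and natural killer genes were instead highest in library 1. Those of the remaining lists were lowest in library 1 but not highest in library 3. The part of any of these cell types in the deviations was not tested. LME-sEV library 2 was highest of its group for 5 genes and library 1 lowest for 5. Without HCME-sEV libraries 1 and 3, a choice made after their values were seen, 0 of the 10 genes were called and the median log2 fold change was 0.054.

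**Figure D3:**
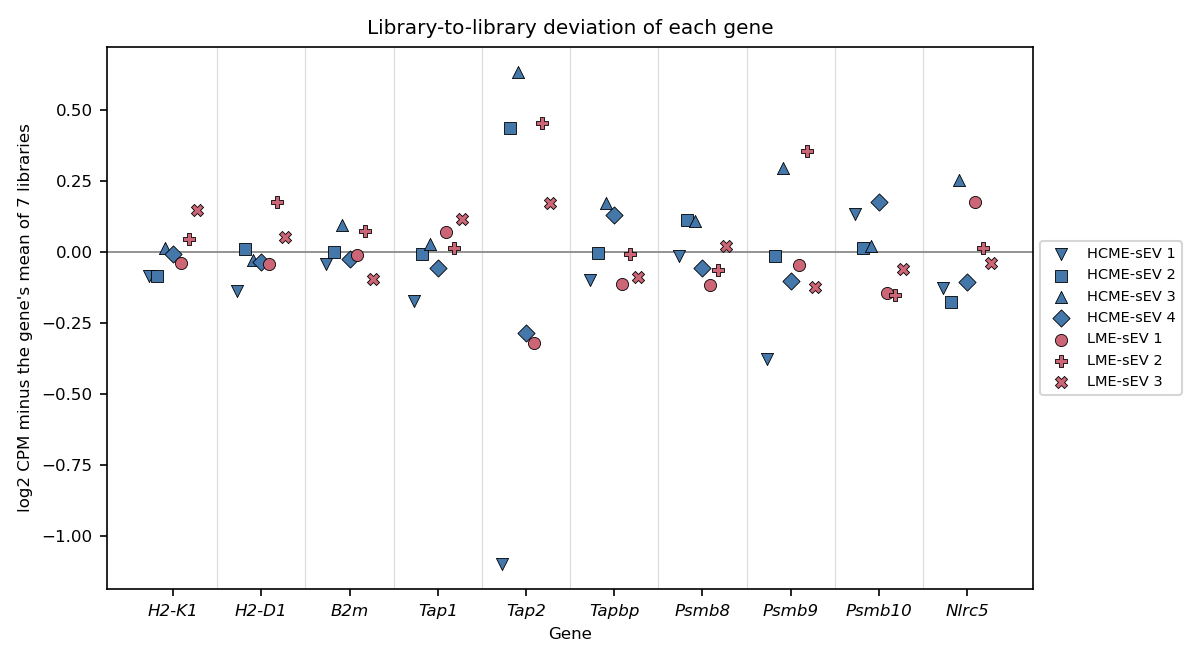
Deviation of log2 CPM from the gene's mean over the 7 libraries (vertical axis) for each of the 10 genes (horizontal axis), with blue marks for HCME-sEV and red marks for LME-sEV libraries. HCME-sEV library 1 (down-pointing triangle) reaches -1.10 for Tap2 and -0.38 for Psmb9, whereas Psmb10 alone keeps all red marks under the blue ones.

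Genes elsewhere in the genome with the most similar course over the 7 libraries were *Zfp281*, *Commd1*, *Edem1*, *Slx4*, and *Rnf167*. Likeness was the root mean square difference of standardised log2 CPM from the mean course of the 10 genes, over 9685 genes, and was 0.434 to 0.457 for these 5. Among the 10 themselves it was 0.499 for *Tap2*, 0.522 for *Psmb9*, and 0.696 to 0.839 for the others except *Psmb10*, at 1.19. The mean course was lowest in HCME-sEV library 1 and highest in HCME-sEV library 3, and none of the 5 similar genes was called between the groups (edgeR FDR of 0.708 or more).

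The surrounding pathway was read from 5 lists of 77 genes, of which 67 were tested. Of these, 11 were called (16.4%, against 8.96% of all genes), 4 higher and 7 lower with LME-sEVs, and 0 were DEG. The lists were chosen with earlier results of these data known, so this difference in shares cannot be read as a result about the pathway. All tested genes also include some averaging as few as 5 counts, and shares at like counts were not compared. Groups that do not overlap, as for several genes below, were seen in 20.3% of all tested genes. The numbers of calls depended on the scaling of the libraries: 7 pathway genes were higher and 5 lower with library size alone, and 6 and 6 with the upper quartile. The same change of scaling from TMM to library size moved the share of higher genes among all calls from 41.8% to 56.8%. They also depended on single libraries, with 1 higher and 2 lower without LME-sEV library 2, 1 and 3 without LME-sEV library 3, 1 and 4 without HCME-sEV library 2, and 2 higher without HCME-sEV library 4.

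**Figure D4:**
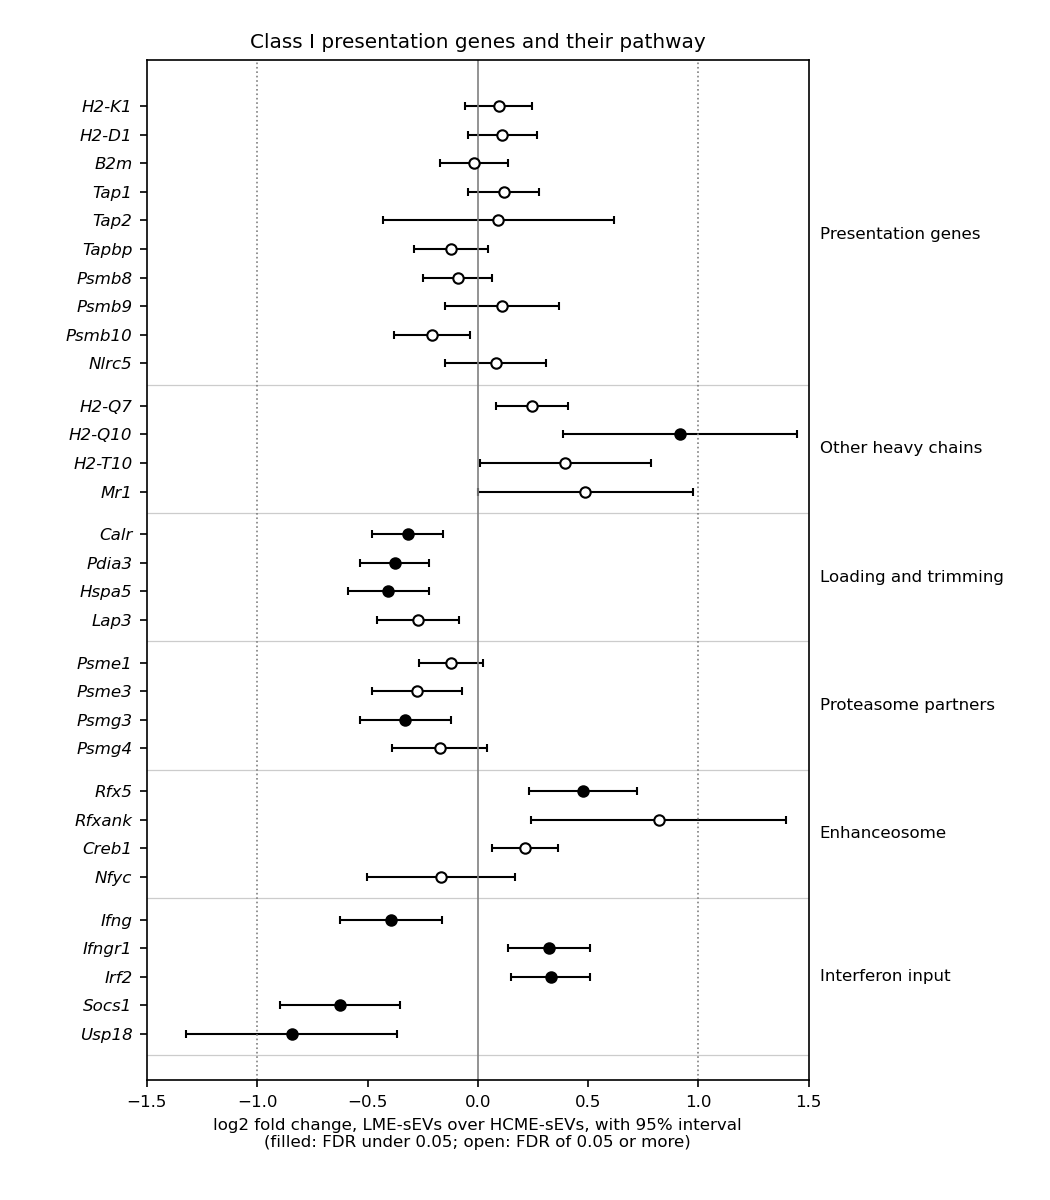
Log2 fold change of LME-sEVs over HCME-sEVs (horizontal axis) with the 95% interval of edgeR for the 10 genes and for the named and called genes of 5 pathway lists, where filled points have an FDR under 0.05 and dotted lines mark a log2 fold change of 1. All 10 points of the presentation genes are open and lie between -0.21 and 0.12, while the filled points run from -0.84 for Usp18 to 0.92 for H2-Q10.

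Among the other class I and class I-like heavy chains, 12 of 22 were tested and 1 was called, higher (8.33%, near the 8.96% of all tested genes). The median log2 fold change was 0.24 (0.0096 over all tested genes), with 11 of 12 above 0. The changes ran from -0.74 for *H2-T24* to 0.92, and whether the list moved as a set was not tested. The called gene was *H2-Q10*, a soluble class I-like heavy chain, at 4.80, 4.80, 5.05, and 4.64 CPM with HCME-sEVs and 6.70, 7.39, and 12.8 CPM with LME-sEVs (log2 fold change 0.92, standard error 0.25, edgeR FDR = 0.0273). These are 19 to 66 counts, and LME-sEV library 3 stood above the other two of its group. Without it the log2 fold change was 0.55 (edgeR FDR = 0.311), and the call was also lost without HCME-sEV library 2 or 4. *H2-Q7*, one of the Qa-2 genes, was at 332 ± 17.2 CPM (n = 4, mean ± SD) and 394 ± 36.1 CPM (n = 3, mean ± SD) and missed the threshold narrowly (log2 fold change 0.25, edgeR FDR = 0.0567), with a call in 8 of 16 other settings. No setting called *H2-T10* (0.40, FDR = 0.207) or *Mr1*, which presents vitamin B metabolites (0.49, FDR = 0.220). The 3′ ends of *H2-T10* and *H2-T22* are 98.3% identical over 300 bases, which makes their tags less certain.

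Of the peptide loading and trimming genes, all 19 were tested, 3 fell (15.8%, against 8.96% of all tested genes called), and 16 did not pass. The median log2 fold change was -0.18. All 3 that fell are chaperones of the endoplasmic reticulum with general duties in protein folding. *Pdia3* (ERp57), the oxidoreductase that pairs with tapasin in the loading complex, was at 294, 329, 315, and 295 CPM with HCME-sEVs and at 243, 231, and 238 CPM with LME-sEVs. The highest LME-sEV library was well under the lowest HCME-sEV library, with a log2 fold change of -0.38 (standard error 0.075, edgeR FDR = 0.00369) that was called in all 16 other settings. *Calr* (calreticulin), which holds the heavy chain by its glycan, was at 651, 639, 571, and 626 CPM against 544, 480, and 474 CPM, again without overlap (log2 fold change -0.32, standard error 0.077, edgeR FDR = 0.0135, called in 13 of 16 settings). *Hspa5* (BiP), which binds unfolded chains, fell from 1048 ± 102 CPM (n = 4, mean ± SD) to 791 ± 85.3 CPM (n = 3, mean ± SD; log2 fold change -0.41, edgeR FDR = 0.00640, called in 14 of 16). *Calr* lost its call without HCME-sEV library 2, and both *Calr* and *Hspa5* without LME-sEV library 2 or 3, where the FDR reached 0.101 and 0.0693 at most. *Lap3*, a cytosolic aminopeptidase, was at 102 ± 8.45 CPM (n = 4, mean ± SD) and 84.5 ± 3.22 CPM (n = 3, mean ± SD) and did not pass (edgeR FDR = 0.0625). Whether the change of *Pdia3* or *Calr* differed from that of *Tapbp* was not tested.

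The list of constitutive counterparts, activators, and assembly factors of the proteasome had 13 tested genes, 1 of them lower and 12 not called. That is 7.69%, near the 8.96% of all tested genes that were called, and the median log2 fold change was -0.13. The lower one was *Psmg3*, a chaperone of proteasome assembly, with 78.4 ± 7.14 CPM (n = 4, mean ± SD) and 62.6 ± 5.25 CPM (n = 3, mean ± SD; log2 fold change -0.33, edgeR FDR = 0.0412). HCME-sEV library 3, at 67.8 CPM, was just under LME-sEV library 1, and the call held in 7 of 16 other settings, and of the fits with a library left out only without HCME-sEV library 3 (FDR of 0.211 at most). *Psme1*, of the PA28 cap that interferon gamma induces, was at 433 to 439 CPM with HCME-sEVs and at 389 to 418 CPM with LME-sEVs (log2 fold change -0.12, edgeR FDR = 0.328). *Psme3* (-0.28, FDR = 0.0883) and *Psmg4* (-0.17, FDR = 0.340) did not pass either. *Psme1* has a nearly identical copy at its 3′ end (*Gm7776*), which makes its tags less certain.

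**Figure D5:**
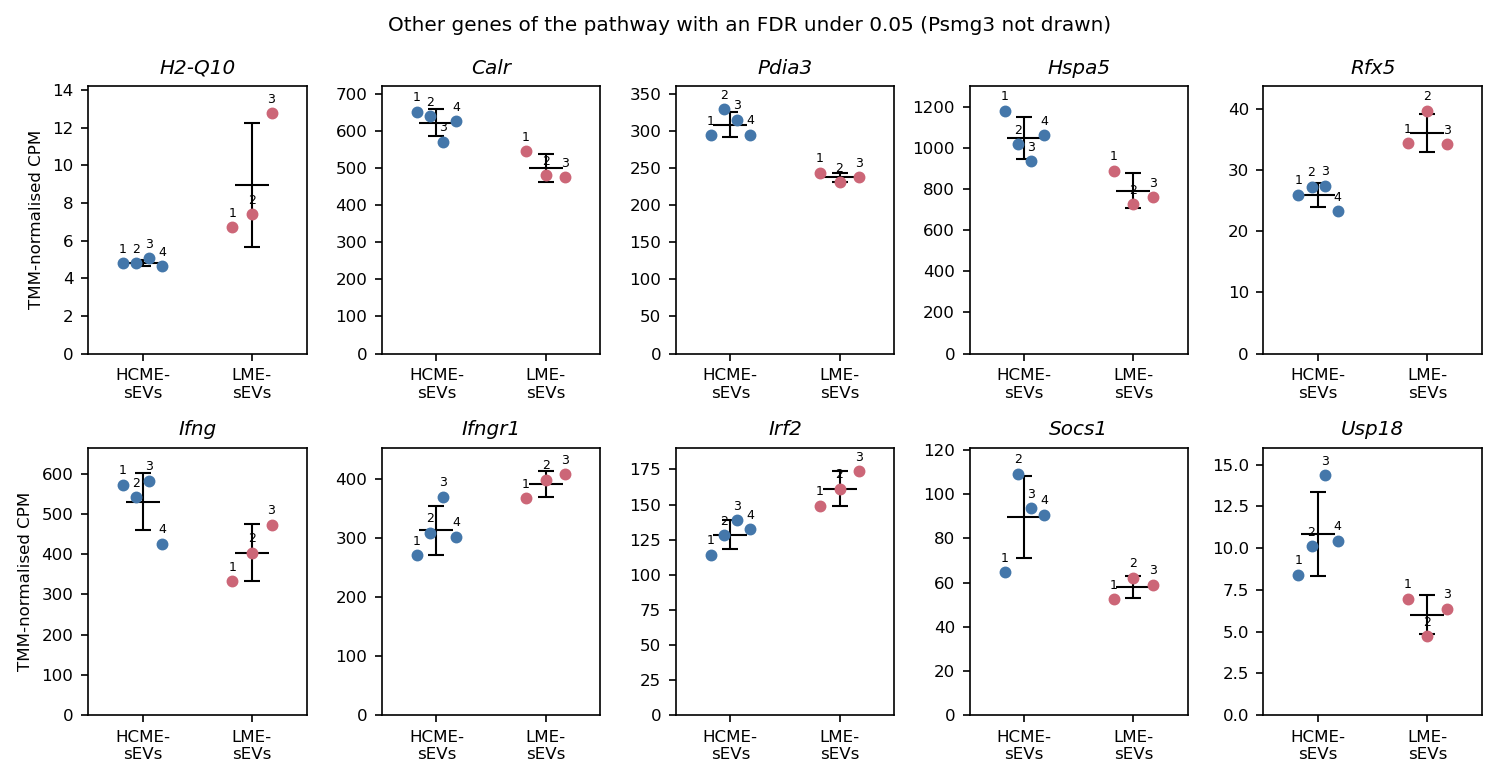
TMM-normalised CPM (vertical axes, each from 0) of 10 of the 11 called pathway genes in the HCME-sEV (blue) and LME-sEV (red) libraries, numbered by library, with mean ± SD in black. The chaperones Calr, Pdia3, and Hspa5 are lower in every LME-sEV library, a separation that 10.8% of all tested genes show in this direction. Ifng and Ifngr1 overlap between the groups.

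For the enhanceosome through which NLRC5 acts, the median log2 fold change was -0.017. Of 8 tested genes, 1 rose (12.5%, against 8.96% of all tested genes called). It was *Rfx5*, the DNA-binding subunit of the RFX complex, which serves class I and class II promoters alike. Its levels were 25.9, 27.3, 27.4, and 23.2 CPM with HCME-sEVs and 34.3, 39.6, and 34.2 CPM with LME-sEVs. No library overlapped, and the log2 fold change of 0.48 (standard error 0.12, edgeR FDR = 0.0143) lost its call without LME-sEV library 2 (FDR = 0.109). *Rfxank*, another subunit, had 12 to 35 counts per library and a log2 fold change of 0.82 that did not pass (edgeR FDR = 0.0706). *Creb1* (0.21, FDR = 0.0654) and *Nfyc* (-0.17, FDR = 0.593) were not called, and *Rfxank* overlaps *Nr2c2ap* on the opposite strand. *Nfyc* has a nearly identical copy at its 3′ end (*Gm9144*).

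Of the interferon input genes, 5 of 15 tested were called (33.3%, against 8.96% of all tested genes), 2 higher and 3 lower. The median log2 fold change was 0.060, and the list, chosen with earlier results known, was not tested as a set. *Ifngr1*, the ligand-binding chain of the interferon gamma receptor, rose from 313 ± 41.4 CPM (n = 4, mean ± SD) to 391 ± 21.2 CPM (n = 3, mean ± SD; log2 fold change 0.32, edgeR FDR = 0.0274), although HCME-sEV library 3, at 369.8 CPM, was just above LME-sEV library 1, at 367.4 CPM. *Irf2*, which binds interferon response elements, was at 114, 128, 139, and 132 CPM against 149, 161, and 174 CPM (log2 fold change 0.33, edgeR FDR = 0.0196). Both calls were lost without HCME-sEV library 2, LME-sEV library 2, or LME-sEV library 3, and that of *Ifngr1* also without HCME-sEV library 4, with an FDR of 0.133 at most.

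*Socs1*, the feedback inhibitor of interferon and cytokine receptors, was at 64.6, 109, 93.6, and 90.7 CPM with HCME-sEVs and at 52.6, 62.3, and 58.9 CPM with LME-sEVs. The groups did not overlap, though HCME-sEV library 1 came close to LME-sEV library 2, and the log2 fold change of -0.62 (standard error 0.13, edgeR FDR = 0.00529) was called in all 16 settings. *Usp18*, which restrains the type I interferon receptor, had 21 to 54 counts per library and fell from 10.8 ± 2.52 CPM (n = 4, mean ± SD) to 6.02 ± 1.18 CPM (n = 3, mean ± SD; log2 fold change -0.84, edgeR FDR = 0.0251, called in 12 of 16). *Ifng* itself, named here after its values were seen because it was the fifth call, was at 572, 542, 582, and 426 CPM with HCME-sEVs and at 332, 404, and 474 CPM with LME-sEVs. HCME-sEV library 4 lay within the LME-sEV range, and the log2 fold change of -0.39 (standard error 0.11, edgeR FDR = 0.0288) was called in 10 of 16 settings. *Usp18* lost its call without HCME-sEV library 3 or LME-sEV library 2 or 3 (FDR of 0.148 at most), and *Ifng* without HCME-sEV library 2 or 3 or LME-sEV library 1 or 2 (0.177 at most).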

How the data were processed

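The 7 libraries are QuantSeq 3′ mRNA libraries with unique molecular identifiers. The authors deposited counts per gene, as whole numbers without normalisation or filter, made with cutadapt 2.10, STAR 2.5.3a on GRCm38, umi_tools 1.0.0, and featureCounts of subread 2.0.0. The annotation release and strand setting are not given in the sources used here. Groups were taken from the sample titles.

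Genes averaging 5 counts or more per library were TMM-normalised and tested with edgeR 4.0.16 (glmQLFit, glmQLFTest) in R 4.3.3 without covariates, with Benjamini-Hochberg adjustment across all these genes. Log2 CPM used a prior count of 2. Single values were compared by a two-sided exact permutation test, whose smallest p is 0.0286. The fit was tested on simulated data first. All replicate pairs differed beyond counting noise (chi-square over degrees of freedom 2.12 to 6.02), and each library counted as 1 sample. Totals per library set the precision, and intervals from counts cover counting error only.

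The genes and lists were chosen with earlier results of these data known. In each list, the 4 genes with the smallest unadjusted p were named, called or not, and for likeness the 5 nearest genes. Of the regulators of this pathway, 1 is not reported here. Copies of 3′ ends were sought by blast 2.17.0 (95% identity over at least 200 of the last 300 bases). Alternatives covered filters, scaling, DESeq2 1.42.0, voom of limma 3.58.1, the replicate number as a block, and leaving out libraries. Figures and ratios used Python 3.11.15 with pandas 2.3.3, scipy 1.17.1, and matplotlib 3.10.9.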

Additional observations from a re-analysis of the deposited data

Results flagged for a closer look

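Among 40 sets of 4 HCME-sEV values, 3 had 1 library standing apart; about 2 such sets arise by chance. Dividing the distance from that library to its closest neighbour by the whole range gave 0.856 for *Nlrc5*, with library 3 at 73.6 CPM and the others at 54.6 to 57.3 CPM. The quotient was 0.876 for *Psmg3*, with library 3 at 67.8 CPM under the others at 81.0 to 82.8 CPM. For the ratio of *H2-D1* to *H2-K1* it was 0.841, with library 2 at a log2 ratio of -0.39 and the others between -0.54 and -0.52. The groups of 3 LME-sEV libraries were not examined in this way.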

How the results depend on the processing

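The 10 presentation genes had 0 calls in all 16 other settings, and their lowest FDR over these was 0.105. Of their 160 values, 151 kept their direction and 9 turned: *B2m* was at 0.0042 (upper quartile), 0.028 (library size only), and 0.00077 (without HCME-sEV libraries 1 and 3), and with 1 library left out in turn *B2m* ran from -0.060 to 0.026, *Tap2* from -0.16 to 0.35, and *Psmb9* from -0.055 to 0.24. The similar genes also turned when libraries were left out in turn: *Zfp281* from -0.066 to 0.13, *Commd1* from -0.041 to 0.095, *Edem1* from -0.057 to 0.096, *Slx4* from -0.084 to 0.14, and *Rnf167* from -0.0019 to 0.23. Of 400 values of the 25 other genes that the naming rule gave, 346 kept their side of the threshold, 31 lost and 13 gained a call, and 10 turned. *Ifng*, outside that rule, kept its call in 10 of 16 settings. Over all genes, 1131 were called and 162 DEG, with 105 DEG in DESeq2 and, leaving out 1 library in turn, 391 to 1305 calls (723 without HCME-sEV library 2, 391 without LME-sEV library 2, 458 without LME-sEV library 3) and 83 to 184 DEG. Pathway genes ranged then from 2 to 7 lower and 1 to 6 higher, and 7 were higher with library size only. The cause of these shifts was not tested, beyond fewer libraries. Ratios moved by less than the spread between libraries, and with a library left out their smallest possible exact p is 0.0667 or 0.100, so they could not pass. With all 7 libraries, a single ratio could not pass the adjustment over the 5 ratios either. *Tap2* was limited by its spread, not by its counts.

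The replicate number as a block gave 1454 calls, 179 DEG, 0 calls among the 10 genes, and 5 higher and 9 lower pathway genes. Libraries with the same number correlated in their deviations by 0.027 to 0.15 over 3 pairs and best with their own number in 1 of 3. So few pairs cannot decide whether equal numbers mark pairs. The main fit did not take them as pairs.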
